A study of Mus musculus with 12 samples.

Results

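The nuclear genes of the mitochondrial respiratory chain were examined in RNA-seq of sorted pre-selection CD4+CD8+ thymocytes. Members were taken by symbol, as genes whose names begin with Nduf, Uqcr, Atp5 or Cox4 to Cox8, or are Sdha, Sdhb, Sdhc or Sdhd, and whose mean over the 12 libraries was at least 1 FPKM (fragments normalised to transcript length and library size). Of 23234 features in the table, 90 symbols matched and 85 passed this level. The 5 that did not, Cox4i2, Cox7b2, Cox8b, Cox8c and Ndufa4l2, are isoforms known from other tissues. The 85 genes comprised 40 of complex I, 4 of complex II, 8 of complex III, 15 of complex IV and 15 of complex V. The other 3, Cox4nb, Atp5s and Atp5sl, matched by name only and were counted with no complex. The 40 of complex I include 4 assembly factors. The 15 of complex IV include the assembly factor Cox7a2l and, despite its name, Ndufa4.

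All mice were C57BL/6, and the sorted cells were CD24hi and TCRβlo. The 5 wild-type libraries came from newborn thymus. The 3 Bcl11bm/m libraries came from newborn mice homozygous for an allele, made by an unplanned frameshift in a targeting vector, that encodes a Bcl11b protein without its last zinc finger. The 4 Bcl11bfl/fl:Cd4-Cre libraries (cKO, as titled) came from mice in which Cre, expressed from Cd4 regulatory sequences, deletes a floxed Bcl11b gene from the CD4+CD8+ stage, and the labels give no age for them, so that genotype and age cannot be told apart in this group. Genotypes followed the sample titles and the study design. The free-text descriptions differ from the titles, since they call the wild-type libraries Bcl11bm/m and the cKO libraries Bcl11b+/+. Nothing states that libraries of a group came from separate animals, so p-values measure the spread between libraries only.

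The respiratory chain passes electrons from NADH (complex I) and succinate (complex II) through complex III and cytochrome c to oxygen at complex IV, and the proton gradient built on the way drives ATP synthase (complex V). Most of its subunits are encoded in the nucleus, while a few at the core of complexes I, III, IV and V are encoded in mitochondrial DNA. Proliferating thymocytes, and T cells that leave quiescence, are known to raise respiration and mitochondrial mass. The table listed 0 of 13 mitochondrially encoded subunits, so only nuclear genes were examined.

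Bcl11b itself was at 132, 286, 292, 158 and 223 FPKM across wild-type replicates 1 to 5, at 430, 434 and 482 FPKM in Bcl11bm/m and at 127, 140, 136 and 115 FPKM in cKO. Every Bcl11bm/m library was above every wild-type library (log2 difference 1.10 ± 0.28 SE, adjusted p = 0.0279 by limma), and 2 cKO libraries lay above the lowest wild-type library (-0.68 ± 0.24 SE, adjusted p = 0.0828 by limma). Gene-level FPKM also counts exons outside a deleted part, so the conditional deletion was not checked by these values. Sequencing depth, estimated from the steps between low FPKM values, was 3950000 to 6870000 fragments in wild-type, 2670000 to 4150000 in Bcl11bm/m and 10790000 to 45160000 in cKO libraries. All 10 markers listed for pre-selection CD4+CD8+ thymocytes, Cd4, Cd8b1, Rag2 and Themis among them, were expressed in every group.

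Wild-type cells expressed the chain at high and very unequal levels per length. Over the 85 genes the median wild-type mean was 82.0 FPKM, from 1.38 FPKM for Atp5s to 505 FPKM for Atp5h, a peripheral stalk subunit of ATP synthase. Transcripts of Atp5h have 4 near-identical copies elsewhere in the genome, so that reads may have been split between them. The highest gene of complex I was Ndufa3, an accessory subunit, at 195 ± 58.4 FPKM (SD, n = 5), and the lowest was the assembly factor Ndufaf4 at 1.87 ± 0.435 FPKM (SD, n = 5). In complex II the range ran from Sdhd, a membrane anchor, at 44.6 FPKM to Sdhb, the iron-sulphur subunit, at 82.0 FPKM. In complex III it ran from Uqcrfs1, the Rieske iron-sulphur protein, at 54.2 FPKM to Uqcrh, a small subunit with 1 near-identical copy elsewhere, at 362 FPKM. Cox4i1, a large nuclear subunit of complex IV, led that complex at 402 ± 120 FPKM (SD, n = 5). By median level, complexes III (108 FPKM), IV (161 FPKM) and V (160 FPKM) stood above complexes I (56.4 FPKM) and II (61.0 FPKM).

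The genes moved up and down together between wild-type libraries, and this spread was wider than the median difference between groups. Replicate 1 was the lowest wild-type library for 80 of the 85 genes, and replicate 4 the highest for 81. Over all 10780 features tested, replicate 1 was the lowest for 57.1% and replicate 4 the highest for 44.6%. As a median over the 85 genes, the difference from the wild-type mean on the log2(FPKM + 1) scale was -0.62 in replicate 1, 0.02 in replicate 2, 0.11 in replicate 3, 0.49 in replicate 4 and 0.00 in replicate 5. The same measure was -0.06, -0.52 and -0.34 in the Bcl11bm/m libraries and -0.46, -0.24, -0.28 and -0.21 in the cKO libraries, so every mutant library lay within the wild-type range for FPKM as deposited. Bcl11bm/m replicate 2 lay below that range after median-ratio scaling (-0.43 against a wild-type low of -0.34) and with the length trend removed (-0.26 against -0.23). In wild-type replicate 1, short RNAs took 17.1% of all FPKM and the median-ratio scaling factor was 0.858, the highest share and the lowest factor of the 12 libraries. In replicate 4 the factor was 1.18, the highest of the 12.

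**Figure D1:**
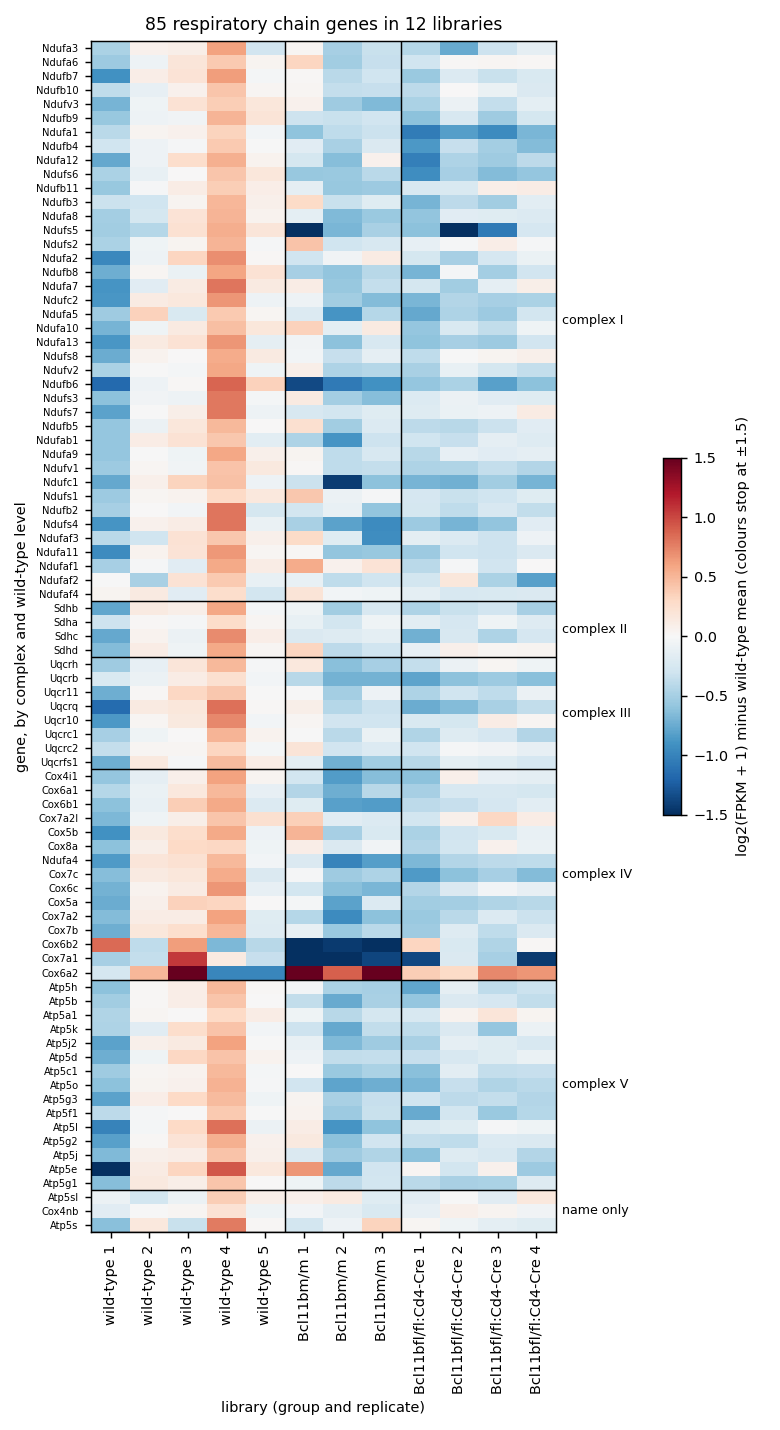
Each row is a gene, ordered by complex and wild-type level, each column a library, and the colour is log2(FPKM + 1) minus the wild-type mean, stopping at ±1.5. Wild-type replicate 1 is the lowest wild-type library for 80 of 85 genes and replicate 4 the highest for 81.

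**Figure D2:**
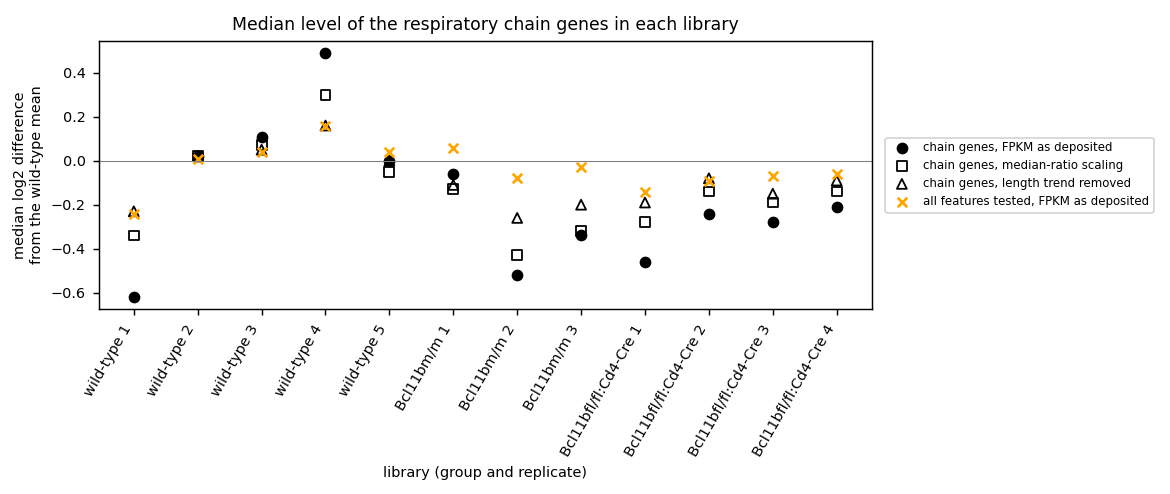
For each library (x axis), the median log2 difference of the 85 genes from the wild-type mean is shown for FPKM as deposited, after median-ratio scaling and after removal of the trend on transcript length, beside the median of all features tested. The wild-type libraries run from -0.62 to 0.49 as deposited and from -0.23 to 0.16 with the length trend removed.

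Whether the chain changes when Bcl11b lacks its last zinc finger was asked by comparing Bcl11bm/m with wild-type. The genes stood slightly lower in the mutant, and few passed the test. Of the 85 genes, 79 had a fitted difference below 0 and the median was -0.28 on the log2 scale, against 52.3% of all features below 0 and a median of -0.02. By limma with an adjusted p under 0.05, 0 genes were higher and 3 were lower, Cox7a1, Cox6b2 and Uqcrb. Over all features tested, 9.92% were called higher and 7.39% lower. At an unadjusted p under 0.05 the genes numbered 13, or 15.3%, all below 0 except Cox6a2 (1.39), against 30.3% of all features. In the same 3 genes every mutant library lay below every wild-type library, against 10.8% of all features.

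For complexes I to V, the medians lay between -0.53 and -0.17. In complex I, 36 of 40 genes were below 0 (median -0.28), 0 were called by limma and 5 had an unadjusted p under 0.05. All 4 genes of complex II were below 0 (median -0.17), and all 8 of complex III (median -0.21), where Uqcrb alone was called. In complex IV, 14 of 15 were below 0 (median -0.53) and both calls, Cox7a1 and Cox6b2, were isoforms known from other tissues. All 15 genes of complex V were below 0 (median -0.34), with 0 called by limma and 2 at an unadjusted p under 0.05. The 4 assembly factors of complex I were split, with 2 below 0 and 2 above.

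Uqcrb, a small subunit of complex III that helps to form the ubiquinone site, was called lower in each mutant against wild-type, 2 comparisons that share the wild-type libraries. It lies on chromosome 13 from 67001553 to 67006314 on the minus strand (NCBIM37). Its level was 115, 127, 146, 159 and 131 FPKM across wild-type replicates 1 to 5, and 101, 81.8 and 82.0 FPKM in Bcl11bm/m. The groups did not overlap. The log2 difference was -0.61 ± 0.14 (SE, adjusted p = 0.0169 by limma), and the adjusted p was 0.0818 without Bcl11bm/m replicate 2 and 0.0712 without replicate 3. In cKO the level was 77.5, 87.3, 92.2 and 86.9 FPKM, again below every wild-type library (-0.64 ± 0.12, adjusted p = 0.00945). Transcripts of Uqcrb have 3 near-identical copies elsewhere in the genome, and the gene overlaps Gm10767, so that reads may have been split between them.

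The cKO libraries were then compared with wild-type, which asks what conditional deletion of Bcl11b changes. Chain genes again stood slightly lower, and few were called. Of the 85 genes, 81 were below 0 with a median of -0.31, against 60.3% of all features and a median of -0.09. By limma, 0 genes were higher and 4 were lower, Ndufa1, Ndufs6 and Ndufb4 of complex I and Uqcrb. Of all features, 4.65% were called higher and 9.86% lower. Median-ratio scaling moved these shares to 7.88% and 8.78% and the median of all features to 0.01. With that scaling the median of the chain genes was -0.20 (72 below 0) and 7 were called lower, and with equal sums without short RNAs the median was -0.16 (68 below 0). At an unadjusted p under 0.05 there were 15 genes (17.6%), each below 0, against 30.6% of all features. In 4 genes, the same that were called, every library lay below every wild-type library, against 10.6% of all features. All 40 genes of complex I were below 0 (median -0.32), as were 3 of 4 of complex II (median -0.28), 8 of 8 of complex III (median -0.28), 13 of 15 of complex IV (median -0.29) and 14 of 15 of complex V (median -0.36).

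Ndufa1, an X-linked accessory subunit needed to build the membrane arm of complex I, differed most of the genes called here. It lies on the X chromosome from 34727583 to 34731158 on the minus strand. Its level was 80.0, 109, 111, 134 and 103 FPKM across wild-type replicates 1 to 5, and 50.5, 59.5, 54.5 and 65.7 FPKM in cKO. The groups did not overlap (log2 difference -0.88 ± 0.15 SE, adjusted p = 0.00735 by limma), and the call held under each alternative run. In Bcl11bm/m it was at 69.5, 81.2 and 84.9 FPKM, which overlapped the lowest wild-type library (-0.43 ± 0.16, adjusted p = 0.116 by limma). Ndufa1 was called lower there with median-ratio scaling (adjusted p = 0.0318) and without wild-type replicate 1 (0.0215). Between the mutants, the Bcl11bm/m libraries all lay above the cKO libraries, with a difference of 0.44 ± 0.12 that missed the threshold (adjusted p = 0.0606 by limma).

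Ndufs6, a zinc-binding accessory subunit, lies on chromosome 13 from 73457286 to 73465990. It was at 71.6, 91.9, 100, 133 and 112 FPKM in wild-type and at 51.9, 70.5, 63.3 and 66.3 FPKM in cKO. The highest mutant library lay just under the lowest wild-type library (-0.66 ± 0.18, adjusted p = 0.0349 by limma). In Bcl11bm/m Ndufs6 was at 66.9, 67.6 and 75.3 FPKM, which overlapped wild-type (-0.51 ± 0.19, adjusted p = 0.107 by limma). There it was called lower with median-ratio scaling (adjusted p = 0.0181), equal sums without short RNAs (0.0395), the length trend removed (0.0307) or wild-type replicate 1 left out (0.0189). Ndufb4, an accessory subunit of the membrane arm on chromosome 16 from 37647256 to 37654539, was at 85, 99.4, 103, 138 and 104 FPKM in wild-type and at 57.0, 82.2, 73.0 and 66.5 FPKM in cKO (-0.59 ± 0.16, adjusted p = 0.0347 by limma). In Bcl11bm/m Ndufb4 was at 92.5, 74.5 and 89.6 FPKM (-0.30 ± 0.16, adjusted p = 0.265 by limma). The calls of Ndufs6 and Ndufb4 in cKO were near the threshold. Leaving out wild-type replicate 2, 3 or 5, or cKO replicate 1, 3 or 4, ended the call of each gene, and leaving out wild-type replicate 4 ended that of Ndufs6. Adjusted p then ran from 0.0640 to 0.101 for Ndufb4 and from 0.0549 to 0.105 for Ndufs6. With no filter on low values the adjusted p was 0.085 for Ndufb4 and 0.095 for Ndufs6. Ndufs6 has 1 near-identical copy elsewhere in the genome.

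**Figure D3:**
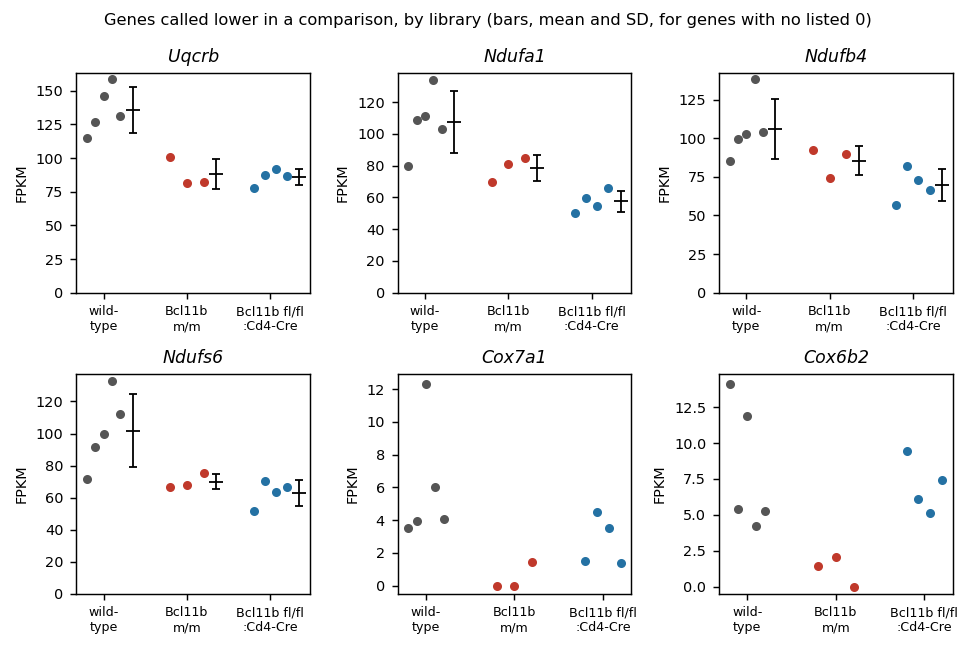
FPKM (y axis) of the 6 genes called lower in any comparison is shown for each library of the 3 groups, with the mean and SD beside the points for genes with no listed 0. Uqcrb lies between 115 and 159 in wild-type and between 77.5 and 101 in the mutants, whereas the highest Bcl11bm/m library is at 1.45 for Cox7a1, within the range of the cKO libraries, and at 2.09 for Cox6b2, below all other libraries.

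**Figure D4:**
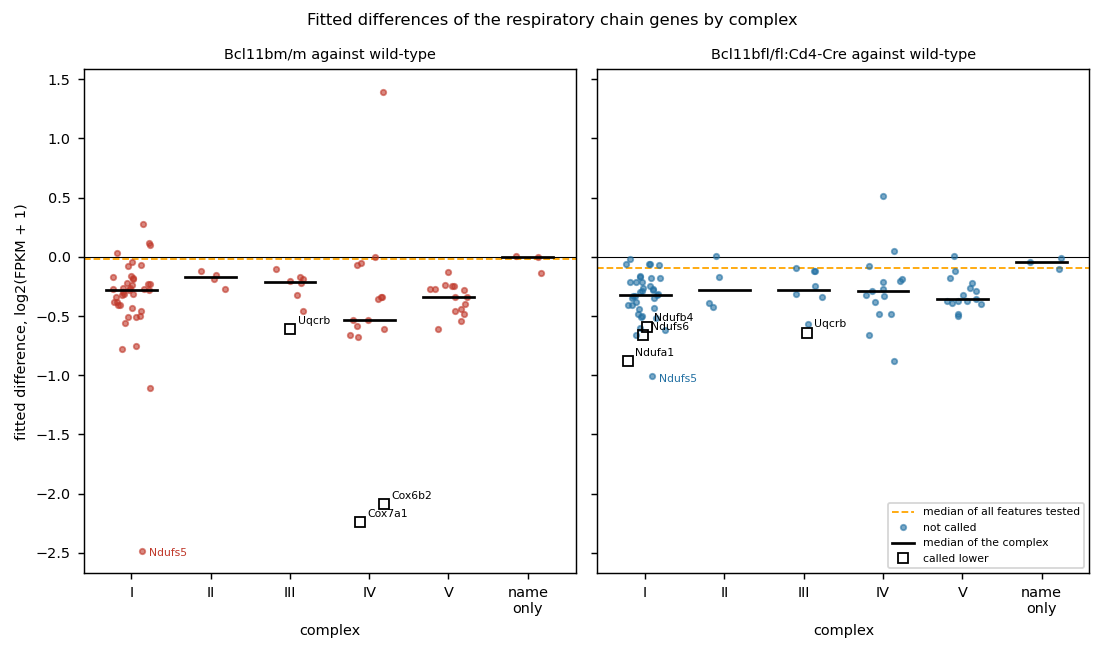
Each point is the fitted difference of a gene on the log2(FPKM + 1) scale (y axis) by complex (x axis), with bars for the median of each complex, a dashed line for the median of all features and open squares for genes called lower. Complex medians lie between -0.53 and -0.17 for Bcl11bm/m, and for cKO between -0.36 and -0.28.

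Promoters are shown for 5 of the 6 genes called lower, to place sequence beside the values. The other is Uqcrb, which was not matched to a window. RefSeq windows (GRCm38.p6) of 300 bases, 250 before and 50 after each start, were matched for 72 of the 85 genes, 3 of them through an older symbol, giving 78 windows. The motifs, known from nuclear genes of the chain and searched on both strands, were GCGCANGC (the NRF1 type), CCGGAAGT (the ETS type), AAGATGGC (the YY1 type) and TCAAGGTCA (the type of estrogen-related receptors). The bases before the start are printed here 5′ to 3′ on the strand of the gene for 5 called genes, with matches in capitals. The strand is minus for all but Cox7a1, and the regions are chrX:37191239-37191488 (Ndufa1), chr16:37654369-37654618 (Ndufb4), chr13:73328483-73328732 (Ndufs6), chr7:30183921-30184170 (Cox7a1) and chr7:4753095-4753344 (Cox6b2).
Ndufa1: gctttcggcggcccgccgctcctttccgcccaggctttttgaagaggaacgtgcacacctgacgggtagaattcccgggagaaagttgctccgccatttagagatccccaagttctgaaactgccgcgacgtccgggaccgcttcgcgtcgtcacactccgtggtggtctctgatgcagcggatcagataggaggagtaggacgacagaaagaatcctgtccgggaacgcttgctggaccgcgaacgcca
Ndufb4: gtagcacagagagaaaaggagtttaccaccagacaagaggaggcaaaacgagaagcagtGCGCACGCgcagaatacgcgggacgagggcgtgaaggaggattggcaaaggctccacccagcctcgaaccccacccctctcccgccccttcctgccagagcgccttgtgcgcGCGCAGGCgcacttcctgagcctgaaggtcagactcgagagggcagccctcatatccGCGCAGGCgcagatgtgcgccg
Ndufs6: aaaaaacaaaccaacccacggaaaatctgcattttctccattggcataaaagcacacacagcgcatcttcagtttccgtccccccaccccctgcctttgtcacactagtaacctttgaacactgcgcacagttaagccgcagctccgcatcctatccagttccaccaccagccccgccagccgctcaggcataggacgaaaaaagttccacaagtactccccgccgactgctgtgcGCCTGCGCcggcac
Cox7a1: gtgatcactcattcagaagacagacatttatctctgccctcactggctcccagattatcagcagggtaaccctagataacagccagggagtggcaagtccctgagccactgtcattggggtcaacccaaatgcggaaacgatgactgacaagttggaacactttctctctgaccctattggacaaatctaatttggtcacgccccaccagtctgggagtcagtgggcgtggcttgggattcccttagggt
Cox6b2: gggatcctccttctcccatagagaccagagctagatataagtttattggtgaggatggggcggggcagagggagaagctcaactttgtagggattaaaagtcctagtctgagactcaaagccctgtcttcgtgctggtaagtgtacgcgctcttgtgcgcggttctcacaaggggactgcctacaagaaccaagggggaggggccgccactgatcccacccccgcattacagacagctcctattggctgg

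The printed part held 3 matches in Ndufb4 and 1 in Ndufs6, all of the NRF1 type, and no match in Ndufa1, Cox7a1 or Cox6b2. Over the 78 windows, 33.3% held the NRF1-type motif, against 9.95% of the 32851 windows of all genes. The YY1-type motif was in 15.4% of the windows of chain genes and 2.75% of all windows. The ETS-type motif was in 6.41% and 3.89%, and TCAAGGTCA in 2.56% and 0.423%. By complex, the NRF1-type motif was in 28.9% of 38 windows of complex I, 3 of 3 of complex II, 2 of 5 of complex III, 8.33% of 12 of complex IV and 47.1% of 17 of complex V. In 8 pairs, matches overlapped each other. These shares describe letters in a window and were not tested, and the files used here hold no binding data for these factors.

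Cox7a1 and Cox6b2, isoforms best known from muscle and from testis, gave the largest log2 differences among the called genes, at levels that few fragments support. Cox7a1, on chromosome 7 from 30969190 to 30971047, was at 3.53, 3.97, 12.3, 6.00 and 4.04 FPKM across wild-type replicates 1 to 5. The Bcl11bm/m libraries listed it at 0, 0 and 1.45 FPKM, below every wild-type library. In cKO it was at 1.47, 4.48, 3.50 and 1.36 FPKM, which overlapped both other groups. The fitted difference of Bcl11bm/m from wild-type was -2.24 ± 0.43 (adjusted p = 0.00913 by limma) on the log2(FPKM + 1) scale, a value that depends on the pseudocount. On the estimated depths these levels stood for 4.4 to 8.9 fragments in a wild-type library and at most 1.1 in a Bcl11bm/m library, and 3 fragments would have given 3.93 to 6.11 FPKM in the latter. Pooled, about 1 fragment in Bcl11bm/m against 27 in wild-type gave a ratio of 0.0916 (95% exact interval 0.00224 to 0.555, counting error only). Cox7a1 made up 4.91 to 13.8% of the summed Cox7a1 and Cox7a2 level in wild-type, 0, 0 and 3.07% in Bcl11bm/m and 2.35 to 7.76% in cKO.

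Cox6b2, on chromosome 7 from 4703396 to 4704696, was at 14.1, 5.40, 11.9, 4.22 and 5.24 FPKM in wild-type, at 1.42, 2.09 and 0 FPKM in Bcl11bm/m and at 9.44, 6.10, 5.11 and 7.46 FPKM in cKO. Bcl11bm/m lay below both other groups without overlap (-2.09 ± 0.47 against wild-type, adjusted p = 0.0187 by limma). The pooled ratio to wild-type was 0.149 (95% exact interval 0.0471 to 0.362), from about 5 and 83 fragments. Without Bcl11bm/m replicate 3 the difference was -1.61 with an adjusted p of 0.0610, and with no filter on low values the adjusted p was 0.0712. cKO differed from wild-type by -0.08 ± 0.33 (adjusted p = 0.891). Cox6a2, the muscle isoform of the Cox6a pair, was at 0.631, 1.77, 5.5, 0 and 0 FPKM in wild-type and at 5.62, 2.66 and 4.67 FPKM in Bcl11bm/m, which overlapped (1.39 ± 0.60, adjusted p = 0.163 by limma, and 0.0228 without wild-type replicate 3). In cKO it was at 1.53, 1.40, 2.25 and 2.1 FPKM. The pooled ratio of Bcl11bm/m to wild-type for Cox6a2 was 3.02 (95% exact interval 1.55 to 5.98, counting error only), from about 22 and 18 fragments. The pooled ratio to cKO was 2.43 (1.43 to 3.96). The gene overlaps Itgad.

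Of the catalytic and core subunits described here, none was called against wild-type with every library kept and FPKM as deposited. Of the 7 core subunits of complex I, 6 were below 0 in Bcl11bm/m and 7 in cKO, with medians of -0.23 and -0.16, and limma called 0 in each (at an unadjusted p under 0.05, 0 and 1). Ndufv1, which binds NADH and flavin, was at 30.3 ± 7.30 FPKM (SD, n = 5) in wild-type, 25.1 ± 4.16 FPKM (SD, n = 3) for Bcl11bm/m libraries and 21.7 ± 0.772 FPKM (SD, n = 4) for cKO libraries. Ndufs1, the largest iron-sulphur subunit, was at 25.4 ± 5.29, 27.1 ± 5.38 and 20.5 ± 0.966 FPKM. Sdha, the flavoprotein of complex II, was at 68.5 ± 9.80, 61.5 ± 4.67 and 60.5 ± 3.44 FPKM, and Sdhb at 82.0 ± 25.8, 65.4 ± 10.5 and 59.6 ± 4.35 FPKM. In complex III, Uqcrfs1 was at 54.2 ± 15.2, 38.2 ± 8.06 and 43.9 ± 3.54 FPKM, and Uqcrc1, a matrix-side core protein, at 79.8 ± 20.2, 69.7 ± 9.78 and 61.5 ± 5.60 FPKM. With every library kept, none of Ndufv1, Ndufs1, Sdha, Sdhb, Uqcrfs1 and Uqcrc1 was called in either comparison with wild-type (adjusted p from 0.122 to 0.795 by limma). Without wild-type replicate 1, limma called Ndufv1 (adjusted p = 0.0112), Ndufs1 (0.017), Sdhb (0.0181), Uqcrfs1 (0.0325) and Uqcrc1 (0.0411) lower in cKO, and Uqcrfs1 (0.0355) lower in Bcl11bm/m.

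In complex IV, Cox4i1 was at 402 ± 120 FPKM in wild-type, 263 ± 53.4 FPKM in Bcl11bm/m and 342 ± 64.5 FPKM in cKO, with a difference of -0.58 ± 0.26 for Bcl11bm/m (adjusted p = 0.174 by limma, called under median-ratio scaling). Cox5a, another nuclear subunit, was at 86.7 ± 23.2, 67.5 ± 17.9 and 59.8 ± 2.15 FPKM. In complex V the catalytic Atp5b was at 363 ± 80.3, 247 ± 33.1 and 279 ± 31.1 FPKM (-0.54 ± 0.21 in Bcl11bm/m, adjusted p = 0.128 by limma, called under median-ratio scaling). Atp5a1, which alternates with Atp5b in the catalytic head, was at 272 ± 48.3, 227 ± 27.9 and 271 ± 32.1 FPKM, and Atp5h at 505 ± 130, 393 ± 73.3 and 376 ± 66.7 FPKM. Without wild-type replicate 1, limma called Cox5a (adjusted p = 0.00645), Atp5b (0.0315) and Atp5h (0.0441) lower in cKO, and Atp5b (0.0218) lower in Bcl11bm/m.

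The 3 genes that encode the same c-ring subunit of ATP synthase were present in similar proportions in each group, which were not tested. Atp5g1 supplied 10.1 to 12.4% of their summed FPKM in wild-type, 10.3 to 12.4% in Bcl11bm/m and 9.97 to 12.2% in cKO. Atp5g2 supplied 39.1 to 42.4%, 38.1 to 42.7% and 39.9 to 43.5%, and Atp5g3 46.2 to 50.4%, 47.0 to 49.5% and 44.5 to 49.5%. The ranges of the groups overlapped for each gene, including the wild-type libraries at either extreme of the summed level. Near-identical copies elsewhere in the genome number 1 for Atp5g1 and 3 for Atp5g2, so that reads may have been split. Of the name-only matches, Cox4nb was at 6.88 ± 0.779, 6.15 ± 0.459 and 6.79 ± 0.503 FPKM, Atp5sl at 15.8 ± 2.99, 15.8 ± 1.84 and 15.2 ± 1.81 FPKM, and Atp5s at 1.38 ± 0.926, 1.28 ± 0.509 and 1.10 ± 0.139 FPKM. Their median differences were 0.00 in Bcl11bm/m and -0.04 in cKO.

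A pair of accessory subunits of complex I had values that stood out without a call, and were chosen after their values were seen. Ndufs5 was listed at 0.0059 FPKM in Bcl11bm/m replicate 1 but at 47.4 and 54.8 FPKM in replicates 2 and 3, at 17.2 to 64.5 FPKM in cKO and at 53.2 to 113 FPKM in wild-type. A value so near 0 for a subunit in general use can be a failed estimate, and the fitted difference of -2.48 ± 1.20 (adjusted p = 0.209 by limma) includes it. Ndufs5 has 1 near-identical copy elsewhere in the genome. Ndufb6 was at 17.8, 38.7, 41.7, 76.1 and 52.3 FPKM in wild-type and at 15.5, 19.1 and 21.4 FPKM in Bcl11bm/m. Wild-type replicate 1 lay within the mutant range (-1.11 ± 0.39, adjusted p = 0.0961 by limma), and the gene was called lower without that library and, with every library kept, under median-ratio scaling and with the length trend removed. It overlaps 2010003O02Rik.

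The mutants were also compared directly, which leaves the wild-type libraries out. For FPKM as deposited the 85 genes were divided evenly, with 42 below 0 and a median of 0.01. Of all features 38.8% were below 0, with a median of 0.09. With median-ratio scaling 54 of the 85 were below 0 (median -0.09, against 0.00 over all features), and with equal sums 51 (median -0.05). Leaving out Bcl11bm/m replicate 1 gave 57 below 0 (median -0.14), and leaving out replicate 2 gave 33 (median 0.08). By limma, 0 genes were higher and 1 was lower in Bcl11bm/m, while 7.63% of all features were higher and 2.6% lower, and 8 of the 85 (9.41%) had an unadjusted p under 0.05, against 29.1% of all features. The gene called was Cox6b2 (-2.01 ± 0.39, adjusted p = 0.0232), whose call ended without cKO replicate 1 (adjusted p = 0.0719) or replicate 4 (adjusted p = 0.0552). In 2 genes, Cox6b2 and Ndufb6, every Bcl11bm/m library was below every cKO library, against 7.76% of all features. In 6 genes, Cox6a2, Ndufa1, Ndufaf1, Ndufaf4, Ndufs1 and Sdhc, every Bcl11bm/m library was above, with adjusted p from 0.0517 to 0.285 by limma, against 2039 of 10780 features. The non-overlapping genes other than Cox6b2 and Cox6a2 were listed after their values were seen.

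How many genes were called depended on wild-type replicate 1 and on the scaling. Without it, 19 of the 85 genes were called lower in Bcl11bm/m and 40 in cKO, against 11.3% and 19.1% of all features, and the medians were -0.47 and -0.47. The 40 genes comprised 18 of complex I, 2 of complex II, 5 of complex III, 6 of complex IV and 9 of complex V. With every library kept and median-ratio scaling, 12 and 7 genes were lower, against 9.93% and 8.78% of all features. Without replicate 1 and with that scaling, a combination chosen after the data were seen, 25 and 21 genes were lower, against 10.7% and 10.2% of all features. No member was called higher against wild-type in these settings. Conversely, without wild-type replicate 4, which was the highest library for 80 of the 85 genes among all 12, 3 genes were lower in each comparison, against 6.22% and 7.3% of all features, and the medians were -0.16 and -0.19. The median of Bcl11bm/m against wild-type also moved with the mutant libraries, to -0.44 without Bcl11bm/m replicate 1 and -0.18 without replicate 2. With every library kept it was -0.26 (77 below 0) under median-ratio scaling and -0.18 (71 below 0) with equal sums.

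**Figure D5:**
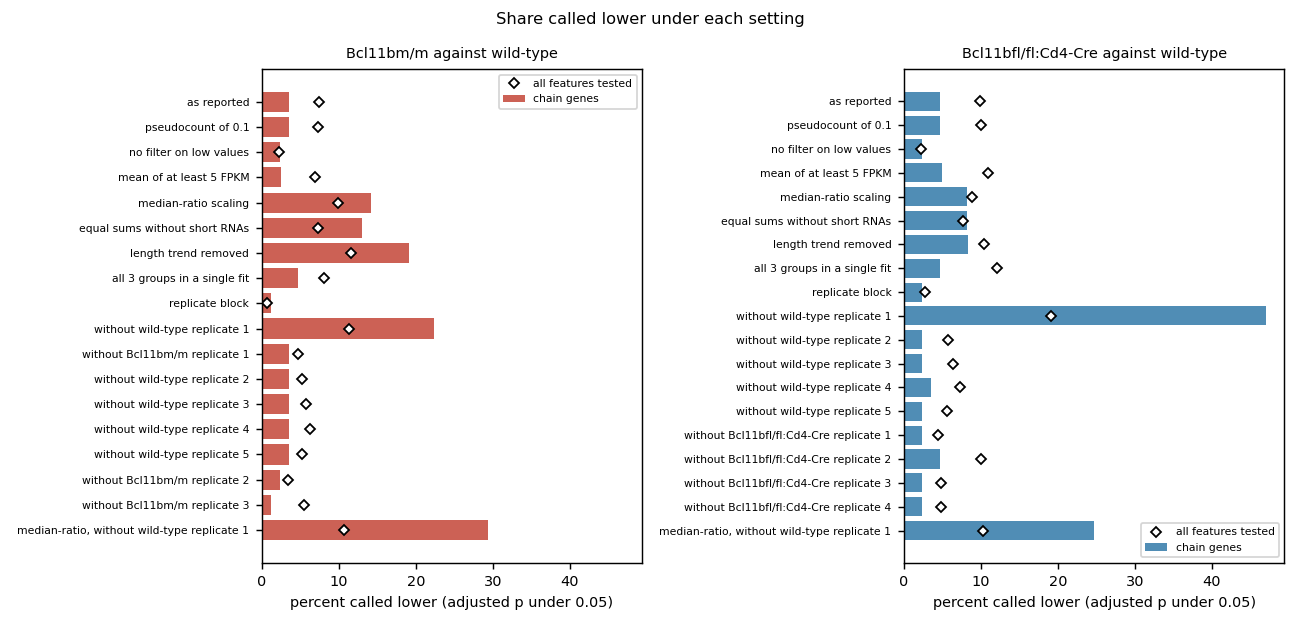
Bars give the percentage of the chain genes called lower (adjusted p under 0.05, x axis) under each setting (y axis) in the comparisons with wild-type, and diamonds the percentage of all features tested. The longest bars are those without wild-type replicate 1, where 19 and 40 of 85 genes were called, or 25 and 21 when median-ratio scaling was added.

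Transcript length moved with these differences. The median length was 701 bases over the chain genes and 2208 bases over the features tested, and 55 chain genes measured at most 1000 bases. Among all features the median difference of Bcl11bm/m from wild-type was -0.15 up to 600 bases and 0.07 above 4000 bases, and for cKO it was -0.12 and -0.01. In each length range up to 4000 bases the median of the chain genes was below that of all features, with -0.44 in Bcl11bm/m and -0.30 in cKO for the 26 genes up to 600 bases. With the length trend of each library removed, the medians were -0.20 and -0.13, and 16 and 7 of 84 genes were lower, against 11.6% and 10.4% of all features. Wild-type replicate 1 was then at -0.23 and replicate 4 at 0.16. The part of length in the result was not tested further.

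Other mitochondrial gene lists are given beside the 7.39% of all features that were lower in Bcl11bm/m and the 9.86% in cKO, and nothing particular to a list is read from 1 or 2 calls. Of 24 tested assembly factors named otherwise, 0 were called by limma against wild-type, with medians of -0.06 in Bcl11bm/m (15 below 0) and -0.18 in cKO (18 below 0). Of 16 genes of the tricarboxylic acid cycle, Idh3a was lower in cKO (16.8 ± 3.70 against 10.5 ± 1.20 FPKM, -0.61 ± 0.17, adjusted p = 0.0402), and 0 were called in Bcl11bm/m. The medians of that list were -0.15 (13 below 0) and -0.21 (14 below 0). A further list held 9 genes outside the name pattern, not all of them chain subunits: Cyc1, Cycs, Atpif1, Usmg5, 2010107E04Rik, Ppa2, Etfa, Etfb and Etfdh. Of these, Cycs (cytochrome c itself, -0.76 ± 0.16, adjusted p = 0.0138 by limma) and Atpif1 (the inhibitor of ATP synthase, -0.95 ± 0.24, adjusted p = 0.0282 by limma) were lower in cKO. Cycs was at 16.6, 24.7, 25.5, 28.7 and 21.6 FPKM in wild-type and at 11.1, 14.7, 14.0 and 13.3 FPKM in that mutant, with no overlap. The 9 genes had medians of -0.27 in Bcl11bm/m (8 below 0) and -0.29 in cKO (9 below 0), close to those of the chain. Of 21 carriers, channels and import factors, Hspa9, a matrix chaperone of import, was lower in cKO (-0.61 ± 0.13, adjusted p = 0.0127 by limma). The medians of these 21 were -0.25 (18 below 0) and -0.31 (20 below 0), also close to those of the chain.

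Of 15 regulators of respiratory gene expression tested (medians -0.14 in Bcl11bm/m and -0.10 in cKO), Myc, which drives growth and mitochondrial biogenesis genes, was higher in Bcl11bm/m. It was at 7.13, 11.3, 10.2, 10.3 and 8.39 FPKM in wild-type, at 54.4, 30.6 and 31.4 FPKM in Bcl11bm/m and at 14.4, 7.04, 10.1 and 12.4 FPKM in cKO. The difference from wild-type was 1.89 ± 0.22 (adjusted p = 0.000920 by limma), and each Bcl11bm/m library was above all others. Nrf1, a transcription factor known to bind the NRF1-type motif, was lower in Bcl11bm/m at 27.2, 24.1 and 26.9 FPKM against 29.4 to 37.4 FPKM (-0.38 ± 0.11, adjusted p = 0.0432 by limma) and differed by -0.05 ± 0.12 in cKO. Hif1a, the oxygen-regulated factor, was lower in cKO (-0.45 ± 0.13, adjusted p = 0.0495 by limma). Wild-type replicate 1 (27.1 FPKM) lay just below the highest cKO library (27.3 FPKM). Against cKO, Bcl11bm/m was higher for Myc and Hif1a and lower for Polg, the mitochondrial DNA polymerase. Gabpa, Yy1, Esrra and Tfam were called in neither comparison with wild-type (adjusted p from 0.0949 to 0.568 by limma), and Ppargc1a was at or under 0.0291 FPKM in every library.

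Markers of other cell states moved with the genotypes beside these values. Of 11 markers of cycling cells, 8 were lower in Bcl11bm/m and 11 in cKO, and their summed level was 838 to 1110 FPKM in wild-type, 346 to 640 FPKM in Bcl11bm/m and 182 to 554 FPKM in cKO. Of 10 markers of pre-selection thymocytes, 6 were lower in Bcl11bm/m and 2 in cKO, with sums of 4720 to 6220, 3440 to 3860 and 2980 to 5060 FPKM. Of 8 tested post-selection markers, 5 and 4 were higher and 1 and 1 lower, with sums of 160 to 288, 306 to 441 and 132 to 326 FPKM. Of 6 tested myeloid markers, 3 were higher in Bcl11bm/m (Fcer1g, Tyrobp and Mpeg1) and 2 were lower in cKO (Lyz2 and Mpeg1). Myeloid markers summed to 7.58 to 15.7, 27.2 to 107 and 4.56 to 48.7 FPKM, and Fcer1g made up 42.2 FPKM of the highest cKO sum. Of 2 tested B cell markers, Cd79a was higher in cKO, and of 3 tested erythroid markers and 1 tested stromal marker limma called 0 against wild-type. B cell markers summed to 12.9 to 21.1, 7.38 to 35.9 and 11.3 to 27.7 FPKM, erythroid markers to 2.44 to 34.1, 10.9 to 29.7 and 0.885 to 5.06 FPKM, and stromal markers to 1.27 to 1.93, 1.62 to 2.83 and 1.28 to 1.68 FPKM. Of the 7 stromal markers, 5 were under 1 FPKM in every library, 1 of them, Col3a1, at 0. In these bulk libraries fewer cells of a type and less RNA per cell cannot be told apart, and the part of these markers in the levels of the chain was not tested.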

How the data were processed

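RNA-seq values were used as deposited. Reads had been mapped by tophat2, and the authors obtained FPKM from cufflinks. The table gives an FPKM value per symbol and library, with no scaling between libraries stated. The submitters' processing notes name Cufflinks 2.1.1, TopHat2 2.8.0 and mm9. The labels' protocol (a low-input cDNA kit, and a sort of another thymocyte population) and the study's methods (a strand-specific kit) differ, so library chemistry and strand use are uncertain. Depth was estimated from FPKM steps in genes with a single transcript, less 180 bases of length, and 62.1 to 68.9% of low values lay within 0.1 of a whole multiple, against 20% if even.

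The 10780 features averaging 1 FPKM or more were compared as log2(FPKM + 1), so that fold changes of low genes are understated, in R 4.3.3, using the lmFit and trended eBayes functions of limma 3.58.1. Each fit held the 2 groups in question. Tests were two-sided, p-values were adjusted by Benjamini and Hochberg over all features, and the threshold was 0.05. Alternatives were a pseudocount of 0.1, no filter, a filter at 5 FPKM, median-ratio scaling, equal sums without short RNAs, a length trend removed by lowess (span 0.3), 1 fit of all 3 groups, a replicate block and each library left out. Positions came from GENCODE vM1 on NCBIM37 (84 members matched). Copies were sought with BLAST 2.17.0 (95% identity over 50% of a transcript), and 22 of 85 members had some. Python 3.11.15, pandas 2.3.3, numpy 2.4.6 and matplotlib 3.10.9 served the rest, and the fit was tested on simulated data.

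The members, gene lists and marker lists were chosen with earlier results of these data known. Named were genes called (up to 3 per complex, direction and comparison), the highest and lowest gene of each complex, the core subunits, c-ring genes, isoforms and name-only matches, and up to 3 called genes per pathway list. Any further name was chosen after values were seen.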

Additional observations from a re-analysis of the deposited data

Results flagged for a closer look

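Cox7a1 in wild-type replicate 3 stood apart, at 12.3 FPKM against 3.53 to 6.00 FPKM in the other 4 wild-type libraries, a gap of 0.719 of the range of the group. It stood for about 8.9 estimated fragments against 4.4 to 4.5. This was 1 of 60 groups of libraries examined for a sample far from the rest, where chance gives about 3. The call of Cox7a1 as lower in Bcl11bm/m held without this library.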

How the results depend on the processing

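Genes called lower in Bcl11bm/m against wild-type (3 as reported) numbered 12 with median-ratio scaling, 11 with equal sums without short RNAs and 16 with the length trend removed, while 9.93%, 7.34% and 11.6% of all features were lower (7.39% as reported). Leaving out libraries gave 1 to 19 lower, with 1 when Bcl11bm/m replicate 3 and 19 when wild-type replicate 1 was out, against 5.44% and 11.3% of all features. It gave 0 to 1 higher, with 1 when wild-type replicate 3 was out, against 8.85% of all features. In Bcl11bfl/fl:Cd4-Cre against wild-type (4 as reported) they numbered 7 under each of those 3 settings (8.78%, 7.65% and 10.4% of all features) and 2 with no filter on low values (2.23%), and 2 to 40 with a library left out. The count was 2 without wild-type replicate 2, 3 or 5 or Bcl11bfl/fl:Cd4-Cre replicate 1, 3 or 4, against 4.38% to 6.32% of all features. It was 40 without wild-type replicate 1, against 19.1%. With median-ratio scaling and without wild-type replicate 1, added after the data were seen, 25 and 21 were lower, against 10.7% and 10.2% of all features. Between the mutants 1 was lower and 0 higher as reported, against 2.6% and 7.63% of all features. With a pseudocount of 0.1 or no filter 0 were lower, against 2.58% and 0.736%. With equal sums or the length trend removed 2 were lower, against 2.88% and 4.97%, and 1 higher, against 5.3% and 5.86%. With a library left out 0 to 4 were lower, against 0.742% to 2.64%, and 0 to 1 higher, against 2.15% to 7.76%. The count lower was 4 without Bcl11bm/m replicate 1 (2.49% of all features). It was 0 without Bcl11bfl/fl:Cd4-Cre replicate 1 or 4 (0.891% and 1.61%). The cause was not tested. Replicate numbers did not pair the libraries (correlations of deviations from -0.211 to 0.152). With the replicate number as a block, 1, 2 and 0 genes were lower in the 3 comparisons, against 0.714%, 2.72% and 0.13% of all features. The medians of the chain genes were then -0.13, -0.32 and 0.01. No result changed direction while called. Depth limits the low isoforms, where 3 fragments give 3.93 to 6.11 FPKM of Cox7a1 in a Bcl11bm/m library.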
